A study of Mus musculus with 11 samples.

Results

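NRF2, the transcription factor encoded by Nfe2l2, and a set of antioxidant enzymes were followed across 3 states of cultured mouse macrophages. The set held 10 listed genes: Nfe2l2, Nqo1, Gclm, Gclc, Srxn1, Txnrd1, Prdx1, Gsr, Sod2 and Cat. Each gene was read from its probe set (a group of array probes for 1 transcript) with the highest mean over all 11 arrays, among probe sets annotated to 1 gene symbol. By this rule 9 of the 10 genes had a value, out of 18193 genes measured in the series. All 5 probe sets of Prdx1 carried a second symbol, Gm21399, so no value is given for Prdx1.

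All cells came from bone marrow of 7-week-old Rag1-/- C57BL/6 mice, which lack mature T and B cells. They were kept 7 days in culture and sorted for F4/80, a surface protein of mouse macrophages. The M1 group (3 arrays) was given interferon-gamma, with lipopolysaccharide (LPS) during the last 24 h, and the M2a group (3 arrays) IL-4 with IL-13. The M0 group (5 arrays), grown with no cytokines, was the standard for both. Total RNA was measured on Affymetrix arrays, and values are deposited log2 probe-set values. Whether the numbered replicates of a group came from separate mice or cultures is not stated in the labels, so each p-value reflects just the spread among these samples, and that spread may be technical.

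In resting cells, KEAP1 holds NRF2 in the cytoplasm and passes it to a ubiquitin ligase for degradation. Oxidants and electrophiles modify KEAP1, and NRF2 then enters the nucleus, pairs with small MAF proteins and binds antioxidant response elements in DNA. Its targets make and recycle glutathione, reduce thioredoxin and detoxify quinones. Control of NRF2 is largely at the protein level, which an array of RNA does not measure. In macrophages, LPS and interferon-gamma switch on enzymes that produce superoxide and nitric oxide, so these genes are often read beside macrophage activation. BACH1, a repressor, occupies the same elements.

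The arrays were checked against lists of marker genes, each given as its mean log2 value. The 8 measured of 9 M1 markers averaged 9.93 to 10.06 on M1 arrays, 5.35 to 5.41 on M2a arrays and 5.96 to 6.04 on M0 arrays. The 8 M2a markers averaged 5.79 to 5.90 in M1, 9.06 to 9.12 in M2a and 6.81 to 7.16 in M0. All 8 M1 markers were called higher in M1 than in M0, beside 22.1% of all genes. Of the 8 M2a markers, 4 were called higher in M2a than in M0 (Arg1, Retnla, Chil3 and Mgl2), beside 18.6% of all genes. Mrc1, Ccl17, Ccl22 and Ccl24 were not called. Arg1 was also higher in M1 than in M0, by 3.48 (log2, adjusted p = 5.1e-08). The 9 macrophage markers averaged 11.66 to 11.67 in M1, 9.96 to 10.28 in M2a and 10.49 to 11.14 in M0. Against M0, 5 of them were called higher and 1, Itgam, lower in M1, and 2 higher and 5 lower in M2a. That is 66.7% and 77.8% called, beside 39.7% and 31.9% of all genes.

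Granulocyte genes stood out in M0 despite the F4/80 sort. The 12 measured of 13 neutrophil-lineage markers averaged 7.27 to 7.45 in M1, 5.71 to 5.80 in M2a and 11.32 to 12.67 in M0, and 11 of the 12 were lower in M1 and 11 of the 12 in M2a than in M0. The 9 mast cell, basophil and eosinophil markers averaged 4.19 to 4.27 in M1, 4.61 to 4.73 in M2a and 7.04 to 9.04 in M0, with 9 lower in M1 and 8 lower in M2a. Of all genes, 17.6% were called lower in M1 and 13.3% in M2a, each against M0. No marker is at 0 on a log2 array scale. In such bulk samples, fewer cells of a type and less RNA per cell cannot be told apart. The part of these cells in the differences from M0 was not tested.

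Control probes also differed between the groups. The spiked hybridization controls averaged 9.64 to 9.75 in M1, 9.79 to 9.96 in M2a and 10.61 to 11.70 in M0, highest on M0 arrays 1 and 4, and the poly-A controls averaged 5.62 in M1, 6.40 in M2a and 9.62 in M0. Probe sets for 18S ribosomal RNA averaged 6.25 in M1, 8.56 in M2a and 9.25 in M0. The actin 5′ minus 3′ probe difference, a sign of RNA integrity, was 0.13 to 0.18 in M1, -0.63 to -0.53 in M2a and -1.27 to 0.05 in M0, so that M1 lay above both other groups. Averaged over arrays 1 to 3 and over arrays 4 and 5, M0 gave equal values for each of the 45101 probe sets, to within 8.3e-05. The 5 M0 arrays therefore do not count as 5 independent ones. Differences were tested with limma over all genes, and a gene was called changed at a Benjamini-Hochberg adjusted p under 0.05; each error of a difference is a standard error (SE).

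In M1 macrophages, Sod2 was 10.2-fold higher than in M0, Gclm 1.78-fold and Txnrd1 1.72-fold higher, and Nqo1 was 1.70-fold lower. In M2a macrophages, Gsr was 5.87-fold lower than in M0, Gclm 1.93-fold and Gclc 1.70-fold lower, and none of the 9 genes was called higher. Of the 9, 4 were called in M1 against M0, where 39.7% of all genes were called, and 3 in M2a against M0, where 31.9% of all genes were called. By direction, 22.1% of all genes were called higher and 17.6% lower in M1, and 18.6% higher and 13.3% lower in M2a. The shares of the 9, 44.4% and 33.3%, lay near the background, so the counts alone do not set the group apart. The median difference of the 9 was 0.35 in M1 and -0.30 in M2a, beside 0.06 and 0.07 over all genes (log2). With quantile normalization, 3 were called higher and 3 lower in M1, since Gclc and Cat also passed as lower. With the mean of each gene's probe sets, 5 were called higher and 1 lower in M1, and 1 higher and 3 lower in M2a. With arrays centred on their medians, 3 were called higher and none lower, since Nqo1 missed the threshold at an adjusted p of 0.061. Once the hybridization controls entered the fit, 1 was called higher, Sod2, and 3 lower, Nqo1, Gclc and Cat. Calls over all 18193 genes in M1 against M0 changed too, from 7217 to 8594 with quantile normalization and 7422 with the mean of probe sets. They were 7602 with centred arrays and 8651 with the hybridization controls. In M2a against M0 the mean of probe sets gave 6134, beside 5804.

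**Figure D1:**
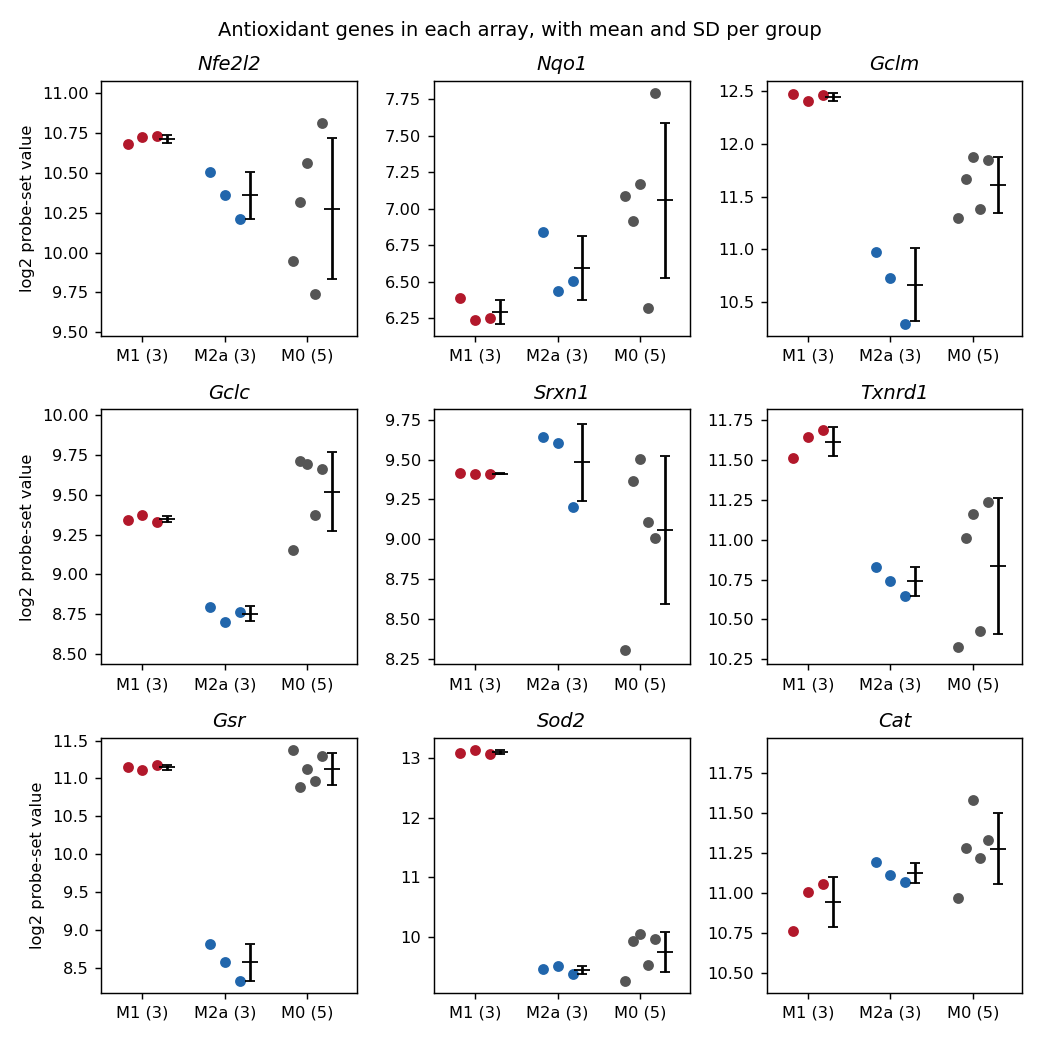
Log2 value of each of the 9 measured genes on every array, by group, with 1 point per array and, beside the points, the group mean with its SD (M1, 3 arrays; M2a, 3 arrays; M0, 5 arrays). Sod2 lies apart in M1, at 13.07 to 13.14, and Gsr lies apart in M2a, at 8.33 to 8.82, while the M0 points are widely spread in most panels.

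Nfe2l2, which encodes NRF2 itself, showed no called change. Its log2 values were 10.68, 10.72 and 10.73 on the M1 arrays, 10.51, 10.36 and 10.21 on the M2a arrays, and 9.95, 10.32, 10.56, 9.74 and 10.82 on the M0 arrays. The M1 arrays all lay above the M2a arrays, and both groups fell inside the M0 range. The difference of M1 from M0 was 0.44 ± 0.21 (SE), with an adjusted p of 0.12 (limma) and a 95% interval of -0.02 to 0.89. In M2a the difference from M0 was 0.08 ± 0.21, with an interval of -0.37 to 0.54, and between M1 and M2a it was 0.35 ± 0.23 with an adjusted p of 0.29.

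A second Nfe2l2 probe set gave a different answer, in a limma fit over 45037 probe sets. It averaged 8.71 in M1, 7.11 in M2a and 6.80 in M0. It was called higher in M1 than in M0, by 1.91 (adjusted p = 3.2e-04), and higher in M1 than in M2a, by 1.60 (adjusted p = 0.0031). The call of the chosen probe set in M1 against M0 also depended on the arrays: it passed with M0 arrays 1 to 3 alone (adjusted p = 0.035), without M0 array 5 (0.018) and with array weights (0.046), whereas its sign turned once either covariate entered. With M0 arrays 1 to 3 alone, the tie of the M0 means fixed the difference itself, and just the spread could change. With the hybridization controls in the fit, Nfe2l2 was called lower in M2a than in M0, at -0.87 (adjusted p = 0.011).

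Promoters were read from RefSeq, build GRCm38.p6, as 250 bases before to 50 bases after each start, and 8 of the 10 genes had at least 1 promoter, 10 promoters in all. Gclc and Gsr had no entry. The antioxidant response element core, TGACNNNGC, was searched on both strands and found in 5 of the 10 promoters, against 12.4% of all 32851 promoters. A match is a description of letters, not a bound site. The Nfe2l2 promoter, chr2:75704614-75704913 on the minus strand, is shown because NRF2 is known to act on its own gene; capitals mark the core, which begins at -240 from the start.
Nfe2l2: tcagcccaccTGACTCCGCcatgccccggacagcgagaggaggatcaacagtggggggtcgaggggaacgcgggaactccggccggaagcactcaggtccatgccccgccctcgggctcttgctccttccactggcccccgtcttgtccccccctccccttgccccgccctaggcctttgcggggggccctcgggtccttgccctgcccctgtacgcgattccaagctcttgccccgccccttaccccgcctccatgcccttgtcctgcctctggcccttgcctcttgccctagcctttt

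The genes listed as regulators of NRF2 moved in both directions. The 13, all measured, were the sensor, its ligase, adaptors, repressors, partners, the kinase gene Gsk3b, and the NRF2 relatives Nfe2 and Nfe2l1. Against M0, 3 were called higher and 3 lower in M1, and 5 higher and 3 lower in M2a. That is 46.2% and 61.5% called, beside 39.7% and 31.9% of all genes. Their median difference from M0 was 0.02 in M1 and 0.06 in M2a. Keap1, the sensor that holds NRF2 back, averaged 8.53 ± 0.03 (SD, n = 3) in M1, 7.94 ± 0.14 (n = 3) in M2a and 8.20 ± 0.26 (n = 5) in M0. Its difference from M0 was 0.33 ± 0.14 in M1 (limma adjusted p = 0.082) and -0.26 ± 0.14 in M2a (adjusted p = 0.19). It was called higher in M1 than in M2a, by 0.58 (adjusted p = 0.015), a call that quantile normalization, or leaving out M1 array 3 or M2a array 3, lost (adjusted p 0.084, 0.051 and 0.064).

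Bach1, the repressor, was lower in both cytokine groups. Its values were 8.44 to 8.56 in M1, 9.10 to 9.20 in M2a and 9.75 to 10.09 in M0, with no overlap between any pair of groups. The differences from M0 were -1.41 ± 0.10 in M1 (limma adjusted p = 7.3e-07) and -0.76 ± 0.10 in M2a (adjusted p = 0.00014). Sqstm1, whose protein p62 competes with NRF2 for KEAP1, was higher by 1.58 ± 0.15 in M1 and by 1.07 ± 0.15 in M2a. Once the hybridization controls entered the fit, the Sqstm1 difference in M2a was 0.40 and was no longer called (adjusted p = 0.057). Among the largest changes, Maff, a small MAF partner, was higher by 1.41 ± 0.09 in M1, and Btrc, an adaptor of a further ligase that marks NRF2, was higher by 1.08 ± 0.12 in M2a. Nfe2, a relative of NRF2 known from blood cell formation, was lower in both, at -4.93 ± 0.28 in M1 and -5.02 ± 0.28 in M2a. Its M0 values of 9.45 to 10.88 stood beside the high granulocyte markers of M0, and the part of granulocytes in them was not tested.

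Glutathione synthesis starts with glutamate-cysteine ligase, a pair of a catalytic subunit (Gclc) and a modifier subunit (Gclm). Gclm was higher in M1 and lower in M2a, and each group was apart from the other groups on all arrays. Its log2 values were 12.48, 12.40 and 12.46 in M1, 10.97, 10.73 and 10.29 in M2a, and 11.30, 11.67, 11.88, 11.38 and 11.85 in M0. The difference from M0 was 0.83 ± 0.17 in M1 (limma adjusted p = 0.0025) and -0.95 ± 0.17 in M2a (adjusted p = 0.0014). Set directly against each other, M1 exceeded M2a by 1.78 ± 0.19 (adjusted p = 2.4e-05), a 3.44-fold difference.

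The rise of Gclm in M1 depended on the covariates. It was 0.25 with the hybridization controls in the fit (adjusted p = 0.51) and 0.58 with the actin 5′ minus 3′ difference (adjusted p = 0.073). The fall in M2a was called under all 25 alternatives run, at -1.48 to -0.76. The second Gclm probe set averaged 10.10 in M1, 7.61 in M2a and 8.60 in M0, with differences from M0 of 1.50 in M1 (adjusted p = 0.0088) and -0.99 in M2a (adjusted p = 0.071). The Gclm promoter, chr3:122245307-122245606 on the plus strand, is shown because Gclm was called in all 3 comparisons; capitals mark an antioxidant response element core on the opposite strand, beginning at -134.
Gclm: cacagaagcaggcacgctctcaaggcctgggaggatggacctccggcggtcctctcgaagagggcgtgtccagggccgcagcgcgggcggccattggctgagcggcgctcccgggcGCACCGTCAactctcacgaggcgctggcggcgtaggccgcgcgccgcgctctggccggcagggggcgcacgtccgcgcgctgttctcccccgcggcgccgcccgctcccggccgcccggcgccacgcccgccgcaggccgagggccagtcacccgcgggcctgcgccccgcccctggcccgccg

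Gclc was lower in M2a and not called in M1. It had log2 values of 9.34, 9.37 and 9.33 in M1, 8.79, 8.70 and 8.76 in M2a, and 9.15, 9.71, 9.69, 9.38 and 9.66 in M0. All M2a arrays lay below all others, and the M1 arrays fell between the lowest and the second-lowest M0 array. The difference from M0 was -0.17 ± 0.13 in M1 (limma adjusted p = 0.32, 95% interval -0.45 to 0.11) and -0.76 ± 0.13 in M2a (adjusted p = 0.00086). M1 exceeded M2a by 0.59 ± 0.14 (adjusted p = 0.0087). The second Gclc probe set was also lower in M2a than in M0, at -0.56 (adjusted p = 0.017), and gave no call between M1 and M2a, at 0.17 (adjusted p = 0.51). Without M0 arrays 1 and 4, Gclc was called lower in M1 as well, at -0.34 (adjusted p = 0.0023).

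Gsr, glutathione reductase, returns oxidized glutathione to its reduced form with NADPH, and it set M2a apart. On the log2 scale it had 11.15, 11.11 and 11.17 in M1, 8.82, 8.58 and 8.33 in M2a, and 11.38, 10.88, 11.12, 10.96 and 11.30 in M0. Every M2a array lay more than 2 log2 units below every other array, while M1 fell inside the M0 range. The M2a difference from M0 was -2.55 ± 0.14 (limma adjusted p = 1.5e-07), the fall of rank 186 among the 18193 genes. The M1 difference was 0.02 ± 0.14 (adjusted p = 0.93), with a 95% interval of -0.29 to 0.32. M1 exceeded M2a by 2.57 ± 0.15 (adjusted p = 1.7e-07), or 5.94-fold.

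The second Gsr probe set gave -2.71 in M2a against M0 (adjusted p = 3.5e-05) and 0.49 in M1 against M0 (adjusted p = 0.20). Over the 25 alternatives the M2a difference was called each time, at -2.68 to -2.43. Within M0, the chosen Gsr probe set was highest on array 1, the array with the highest neutrophil-lineage mean, 12.67. It was 10.96 on array 4, where that mean was next highest, at 11.95. The second probe set was highest on M0 array 5, at 11.41, and was 11.06 on array 1. On the M1 arrays, where the neutrophil-lineage mean was 7.27 to 7.45, the chosen probe set gave 11.11 to 11.17. On the M2a arrays, where that mean was lowest, at 5.71 to 5.80, the chosen probe set gave 8.33 to 8.82. The part of granulocytes in the Gsr values was not tested.

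Txnrd1 encodes the cytosolic selenoenzyme that keeps thioredoxin reduced, and it was higher in M1. Values were 11.51, 11.64 and 11.69 in M1, 10.83, 10.74 and 10.65 in M2a, and 10.33, 11.01, 11.16, 10.43 and 11.24 in M0. The M1 arrays lay above all others, and the M2a arrays lay within the M0 range. The difference of M1 from M0 was 0.78 ± 0.20 (limma adjusted p = 0.0093), that of M2a from M0 was -0.10 ± 0.20 (adjusted p = 0.75), and M1 exceeded M2a by 0.88 ± 0.22 (adjusted p = 0.012).

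All 3 Txnrd1 probe sets were called higher in M1 than in M0, the others by 1.16 (adjusted p = 0.011) and 0.89 (adjusted p = 1.5e-05). The M1 difference of the chosen probe set was 0.32 with the actin covariate (adjusted p = 0.31) and turned to -0.30 once the hybridization controls entered the fit (adjusted p = 0.26). The difference between M1 and M2a was also lost with the actin covariate, at 0.44 (adjusted p = 0.18). Of the 3 Txnrd1 promoters listed, that at chr10:82858956-82859255 on the plus strand held the antioxidant response element core, in capitals, on the opposite strand at -92.
Txnrd1: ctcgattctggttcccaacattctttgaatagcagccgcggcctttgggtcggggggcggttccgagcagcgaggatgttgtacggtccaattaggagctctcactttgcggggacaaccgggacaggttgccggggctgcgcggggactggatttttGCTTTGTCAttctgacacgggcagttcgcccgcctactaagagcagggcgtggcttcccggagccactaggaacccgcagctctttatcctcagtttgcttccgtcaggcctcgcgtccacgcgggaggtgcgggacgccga

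Srxn1, sulfiredoxin, repairs peroxiredoxins that hydrogen peroxide has over-oxidized, and its chosen probe set showed no called change. It had log2 values of 9.42, 9.41 and 9.41 in M1, 9.64, 9.61 and 9.21 in M2a, and 8.30, 9.36, 9.51, 9.11 and 9.01 in M0. The 3 M1 arrays were nearly identical, whereas M0 array 1 lay well below the other M0 arrays. The difference from M0 was 0.35 ± 0.23 in M1 (limma adjusted p = 0.24) and 0.43 ± 0.23 in M2a (adjusted p = 0.18), and -0.07 ± 0.25 between M1 and M2a (adjusted p = 0.86).

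Other Srxn1 probe sets disagreed with it. A pair of them were called higher in M1 than in M0, by 1.52 (adjusted p = 0.0018) and 1.65 (adjusted p = 7e-04), and the fourth was not called, at 0.14 (adjusted p = 0.27). In M2a against M0 none of the 4 was called, at 0.22 to 0.78. Between M1 and M2a, the probe set with the 1.65 rise was called higher in M1, by 0.93 (adjusted p = 0.045), and the other 3 were not called. The Srxn1 promoter, chr2:152105274-152105573 on the plus strand, is shown because it held both the antioxidant response element core, at 29 bases after the start, and the AP-1 site TGACTCA, with matches at -102 and -45. The AP-1 site was in 5.2% of all promoters, and since its first 4 letters are those of the core the 2 motifs can overlap. Capitals mark all 3 matches, each on the opposite strand.
Srxn1: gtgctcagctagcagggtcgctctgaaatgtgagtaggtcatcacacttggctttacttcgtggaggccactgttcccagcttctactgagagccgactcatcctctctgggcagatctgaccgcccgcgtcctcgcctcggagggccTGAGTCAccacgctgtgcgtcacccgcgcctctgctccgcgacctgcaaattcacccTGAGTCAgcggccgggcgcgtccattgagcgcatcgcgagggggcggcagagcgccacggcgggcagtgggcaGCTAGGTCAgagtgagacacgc

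Nqo1, a quinone reductase often used as a readout of NRF2, was lower in M1. Its log2 values were 6.39, 6.24 and 6.25 in M1, 6.85, 6.43 and 6.51 in M2a, and 7.09, 6.92, 7.17, 6.32 and 7.80 in M0. M0 array 4 reached down among the M1 arrays, so the groups overlapped. The difference from M0 was -0.77 ± 0.25 in M1 (limma adjusted p = 0.030) and -0.46 ± 0.25 in M2a (adjusted p = 0.18). The M1 call was a narrow one: it was lost when M0 array 3 or any single M1 array was left out (adjusted p 0.057, 0.066, 0.092 and 0.089), with M0 arrays 4 and 5 alone (0.17) and with the M2a arrays out of the fit (0.057). With M0 arrays 4 and 5 alone, the tie of the M0 means fixed the difference itself. In the main fit, Nqo1 was the one called gene of the set that was lower in M1. In M2a against M0 it was called lower under 7 of the 25 alternatives. M1 differed from M2a by -0.30 ± 0.28 and was not called (limma adjusted p = 0.46).

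Sod2 encodes the mitochondrial manganese superoxide dismutase, which turns superoxide into hydrogen peroxide, and it was the largest change of the set. Its log2 values were 13.09, 13.14 and 13.07 in M1, 9.46, 9.51 and 9.37 in M2a, and 9.25, 9.93, 10.05, 9.53 and 9.96 in M0. Every M1 array lay more than 3 log2 units above every other array, and the M2a arrays fell within the lower part of the M0 range. The M1 difference from M0 was 3.36 ± 0.16 (limma adjusted p = 3.5e-08), the rise of rank 97 among 18193 genes. In M2a the difference was -0.30 ± 0.16 (adjusted p = 0.20). M1 exceeded M2a by 3.65 ± 0.18 (adjusted p = 3.6e-08), or 12.6-fold.

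The other 3 Sod2 probe sets were also higher in M1 than in M0, by 3.74, 4.55 and 2.14, with adjusted p-values of 2.6e-07 or less. In M2a against M0 they gave 0.03, 1.02 and 0.26, of which 1.02 was called higher (adjusted p = 0.012). The M1 rise of the chosen probe set was called under all 25 alternatives, at 2.54 to 3.45. Without M0 arrays 1 and 4 the M2a difference was called as a fall, at -0.53 (adjusted p = 2.4e-04), so its call in M2a depended on the M0 arrays and the probe set.

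The Sod2 promoter held no antioxidant response element core. It held a match to the NF-kB consensus, beginning at -83, and such a match occurred in 8.46% of all promoters and in 3 of the 10 promoters of the set. The other matches were in the promoters of Cat, which was not called in M1, and Prdx1. NF-kB is the textbook factor of LPS signalling, which is why this promoter, chr17:13007589-13007888 on the plus strand, is shown with the match in capitals.
Sod2: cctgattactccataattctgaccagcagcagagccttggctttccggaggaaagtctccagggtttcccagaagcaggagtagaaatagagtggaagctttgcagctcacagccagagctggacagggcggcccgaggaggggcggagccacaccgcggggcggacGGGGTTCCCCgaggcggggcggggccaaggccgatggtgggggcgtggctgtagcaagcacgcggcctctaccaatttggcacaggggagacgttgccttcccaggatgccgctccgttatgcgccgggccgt

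Cat, the peroxisomal catalase that breaks down hydrogen peroxide, showed no called change. On the log2 scale it had 10.76, 11.01 and 11.06 in M1, 11.20, 11.11 and 11.07 in M2a, and 10.97, 11.28, 11.58, 11.22 and 11.33 in M0. The groups lay close together, with the M1 arrays all just below the M2a arrays. The difference from M0 was -0.34 ± 0.13 in M1 (limma adjusted p = 0.061) and -0.15 ± 0.13 in M2a (adjusted p = 0.41). Without M0 arrays 1 and 4, and with quantile normalization, Cat was called lower in M1, at -0.46 (adjusted p = 0.0045) and -0.54 (adjusted p = 0.0022). A second Cat probe set gave 0.37 in M1 (adjusted p = 0.25), the opposite sign.

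M1 and M2a were then set against each other, a comparison that leaves the M0 means out. Of the 9 genes, 5 were called and all 5 were higher in M1: Gclm, Gclc, Txnrd1, Gsr and Sod2. Of all genes, 29.4% were called in this comparison, 13.7% higher in M1 and 15.6% lower. The median difference of the 9 was 0.59, against -0.02 over all genes. The other 4 genes ran from -0.30 for Nqo1 to 0.35 for Nfe2l2. With quantile normalization a sixth was called, Cat, lower in M1 at -0.36 (adjusted p = 0.043). With the actin covariate 3 were called higher, Gclm, Gsr and Sod2, and Nqo1 was called lower, at -1.11 (adjusted p = 2.6e-04). The Gclc difference between M1 and M2a was then 0.43 (adjusted p = 0.080), and it was 0.38 with the mean of its probe sets (adjusted p = 0.079). In the main fit the M0 arrays still entered the estimate of spread. With M1 and M2a alone in the fit, 7 of the 9 genes were called, 6 higher and 1 lower in M1. Array weights gave the same counts. Over all genes, 10357 and 11342 were called in those settings, 6195 with quantile normalization and 7010 with the actin covariate. The actin difference itself did not overlap between M1 and M2a, and its part in these results was not tested. Because both M0 comparisons share the M0 arrays, their values are given side by side and no correlation between them is given.

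**Figure D2:**
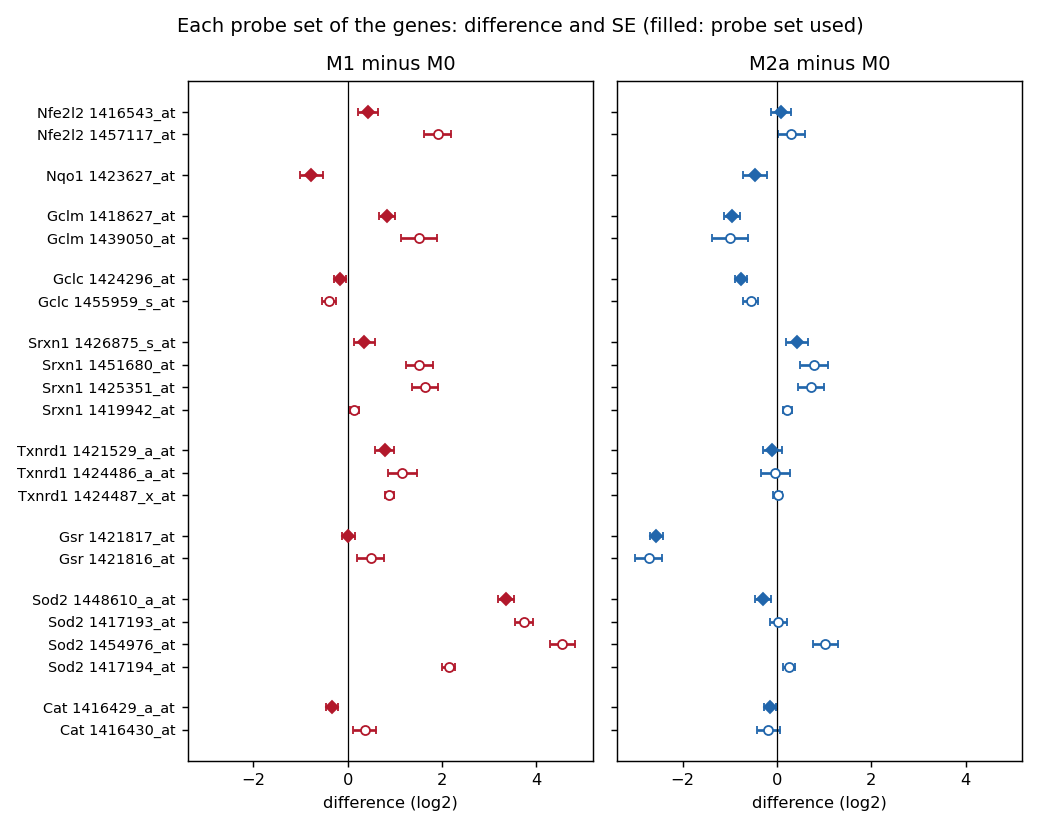
Differences from M0 (log2, ± SE) for all 22 probe sets with 1 symbol of the 9 genes, in M1 and in M2a, with the chosen probe set of each gene as a filled diamond. The Sod2 probe sets span 2.14 to 4.55 in M1 and both Gsr probe sets lie below -2.5 in M2a, whereas those of Nfe2l2 and Srxn1 are far apart in M1.

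As the plot of all probe sets shows, 8 of the 9 genes had more than 1 probe set, 22 in all. Signs between probe sets of a gene differed for Cat in M1 against M0 and for Sod2 and Txnrd1 in M2a against M0, and in M1 against M2a for Srxn1 and Cat. Levels of different probe sets are not compared here, since each has its own brightness.

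**Figure D3:**
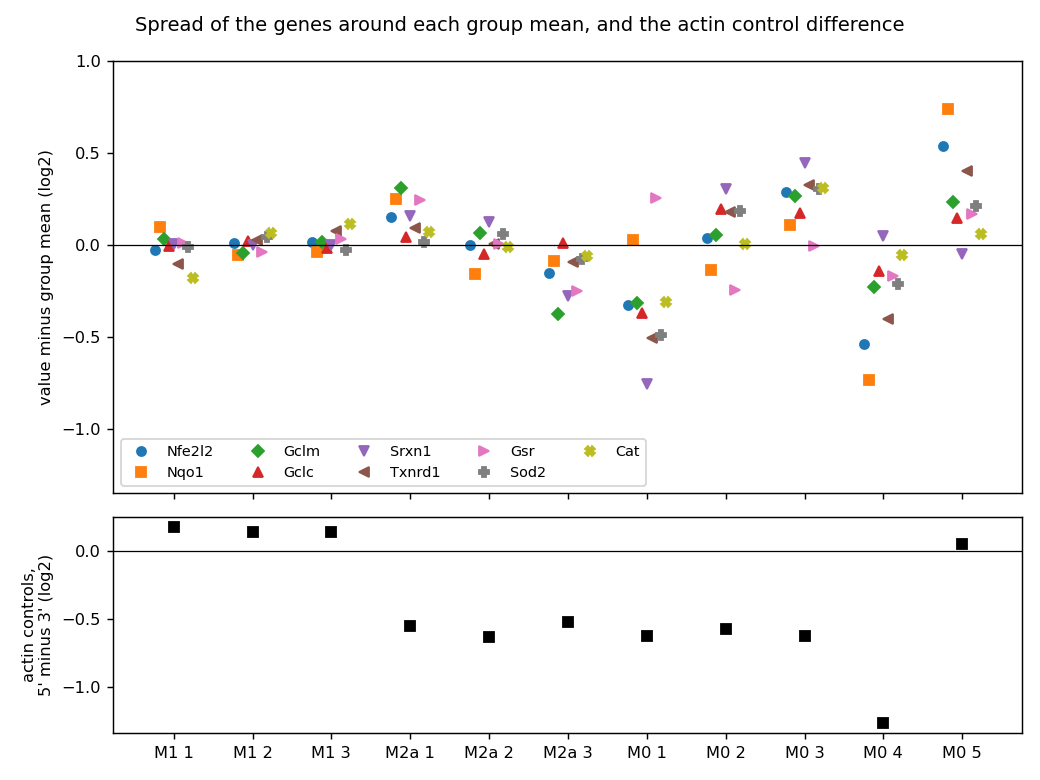
Deviation of each of the 9 genes from its group mean (log2) on each array (upper panel) and the actin 5′ minus 3′ difference of the array (lower panel, log2), from M1 and M2a on the left to M0 on the right. The M1 points lie closest to 0, and on M0 array 1 most genes lie below 0; the actin difference is lowest on M0 array 4, at -1.27.

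Arrays of a group agreed to different degrees, as the plot of deviations by array shows. The median SD of the 9 genes was 0.036 in M1, 0.15 in M2a and 0.34 in M0, against 0.082, 0.086 and 0.24 over all genes. Within M0, array 1 was the lowest for 6 of the 9 genes and array 4 for 2, Nfe2l2 and Nqo1. Array 3 was the highest for 4 and array 5 for 3, Nfe2l2, Nqo1 and Txnrd1. Array 1 also had the highest granulocyte markers and, with array 4, the highest hybridization controls of M0, and the part of either in these low values was not tested. When both arrays were left out, 6 of the 9 genes were called in M2a against M0, all lower, and 6 in M1 against M0, 3 of them higher. Calls over all 18193 genes rose as well, from 5804 to 8233 in M2a against M0 and from 7217 to 9218 in M1 against M0.

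The wider set of NRF2 targets, 18 measured of 20 listed, had more calls upward in M1 and downward in M2a. In M1 against M0, 9 were called higher and 4 lower, 72.2% in all beside 39.7% of all genes, with a median difference of 0.35 beside 0.06. In M2a against M0, 2 were called higher and 8 lower, 55.6% beside 31.9%, with a median of -0.34 beside 0.07. Between M1 and M2a, 12 were higher in M1 and 3 lower, 83.3% beside 29.4%, with a median of 0.76 against -0.02 over all genes. Once the hybridization controls entered the fit, the 13 calls in M1 against M0 became 6.

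Hmox1, heme oxygenase, led the rises in M1. It had log2 values of 13.55 to 13.67 in M1, 9.79 to 10.88 in M2a and 9.28 to 10.70 in M0, so M1 stood apart and M2a overlapped M0. The difference from M0 was 3.53 ± 0.33 in M1 (limma adjusted p = 6.9e-06) and 0.17 ± 0.33 in M2a (adjusted p = 0.73). Slc7a11, the cystine importer that feeds glutathione synthesis, averaged 9.57 ± 0.04 (SD, n = 3) in M1, 7.74 ± 0.11 (n = 3) in M2a and 6.86 ± 0.40 (n = 5) in M0. It was higher by 2.72 ± 0.19 in M1 (adjusted p = 6.9e-07) and by 0.88 ± 0.19 in M2a (adjusted p = 0.0045). The M2a call was lost with the mean of the gene's probe sets, at 0.30 (adjusted p = 0.22), and once the hybridization controls entered the fit, at 0.27 (adjusted p = 0.48).

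The largest falls of these targets in M1 were those of Idh1 and Tkt. Idh1, a cytosolic dehydrogenase that produces NADPH, differed from M0 by -1.01 ± 0.16, and Tkt, transketolase of the pentose phosphate pathway, by -0.95 ± 0.10. In M2a, Gstp1, a glutathione transferase, was lower, at -1.19 ± 0.09, and so was Pgd, a dehydrogenase of the pentose phosphate pathway, at -0.90 ± 0.11. Ephx1, an epoxide hydrolase, was higher in M2a by 2.41 ± 0.36 (limma adjusted p = 0.00035), and once the hybridization controls entered the fit that difference was 0.73 (adjusted p = 0.14).

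Genes that use or break down glutathione moved both ways. Of 22 measured, 8 were called higher and 5 lower in M1, and 7 higher and 5 lower in M2a, with median differences of -0.04 and 0.26. The called shares were 59.1% and 54.5%, beside 39.7% and 31.9% of all genes. Ggct, which acts on gamma-glutamyl peptides, was higher in M1 by 3.15 ± 0.25, and Glrx, glutaredoxin, by 2.32 ± 0.10. Gpx3, a secreted glutathione peroxidase, fell to 7.79 to 7.96 in M1 and 6.46 to 7.63 in M2a, against 9.07 to 10.72 in M0. Mgst3, a microsomal glutathione transferase, was lower in M1, at -2.12 ± 0.24, and its relative Mgst2 was lower in M2a, at -3.02 ± 0.43. The Mgst2 call was lost once the hybridization controls entered the fit, at -1.61 (adjusted p = 0.074).

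A pair of enzymes that degrade glutathione in the cytosol led the M2a rises on this list. Chac1 was higher by 1.69 ± 0.17 (limma adjusted p = 1.9e-05) and Chac2 by 1.21 ± 0.36 (adjusted p = 0.023). The Chac2 call was lost when M2a array 1, 2 or 3 was left out (adjusted p 0.057, 0.061 and 0.091), and its sign turned once the hybridization controls entered the fit, at -0.62.

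Of the peroxiredoxin, thioredoxin and superoxide genes, 18 measured, 7 were called higher and 6 lower in M1, and 7 higher and 4 lower in M2a. The called shares were 72.2% and 61.1%, beside 39.7% and 31.9% of all genes, and the median differences were 0.04 and 0.22. In M1, Sesn3, a sestrin, was higher by 1.74 ± 0.16, and Prdx2, a cytosolic peroxiredoxin, by 1.16 ± 0.20. The Prdx2 difference was 0.02 once the hybridization controls entered the fit (limma adjusted p = 0.92). Msra, which repairs oxidized methionine, was lower in M1, at -2.33 ± 0.12, as was Txnip, the inhibitor that binds thioredoxin, at -1.97 ± 0.12.

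In M2a, Txnrd3, a thioredoxin reductase known from testis, was higher by 1.55 ± 0.13, and Txn2, the mitochondrial thioredoxin, by 1.05 ± 0.08. Msrb1, a selenoenzyme that repairs methionine, was lower, at -1.48 ± 0.12, as was Park7, which encodes a redox-sensitive protein, at -1.17 ± 0.08. Txnip was 8.95 to 9.11 in M1, 11.39 to 11.54 in M2a and 10.80 to 11.24 in M0, so the groups did not overlap.

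**Figure D4:**
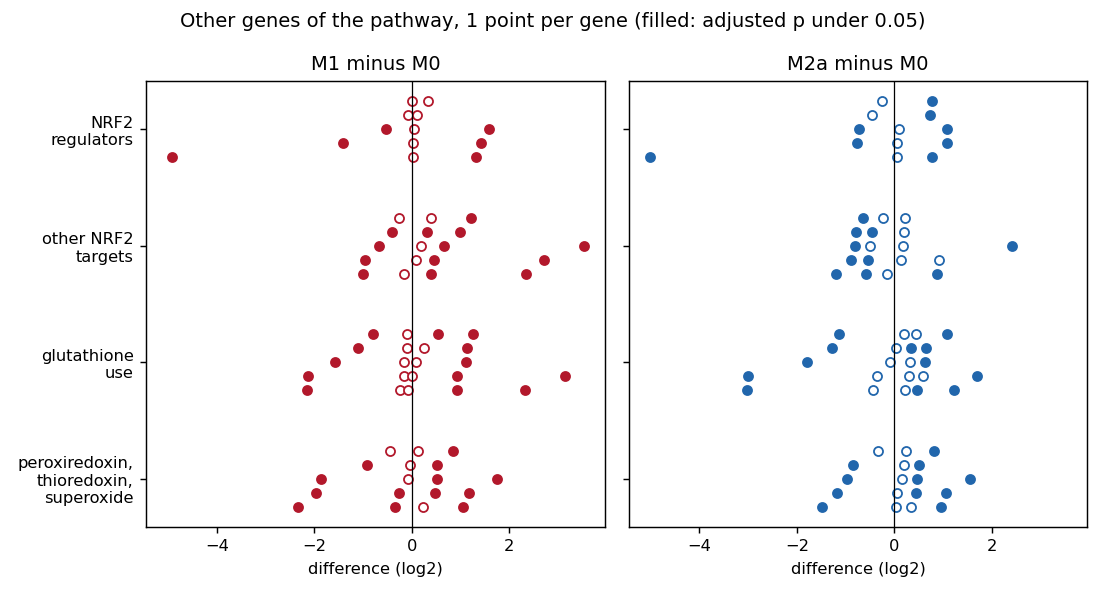
Differences from M0 (log2) of the genes on the 4 pathway lists, in M1 and in M2a, with 1 point per gene and called genes filled. Most called targets of NRF2 lie above 0 in M1 and below 0 in M2a, and Nfe2, on the list of regulators, lies farthest to the left in both.

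The plot of the 4 pathway lists shows that, within each list, called genes lay on both sides of 0 in both comparisons. The lists are described by counts and medians, and no test of a list was made.

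The genes whose profiles over the 11 arrays lay nearest to that of Nfe2l2, each profile taken around its own mean, were Siae, Hsbp1 and Ntan1. Their root mean square differences from Nfe2l2 were 0.067, 0.076 and 0.080 (log2). Among the enzymes, Txnrd1 was the nearest, at 0.22 and rank 1004, and Sod2 the farthest, at 1.38.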

How the data were processed

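Each of 11 arrays (M1 3, M2a 3, M0 5) has 45101 probe-set values, deposited on a log2 scale. Partek is named without a version, per the submitters' processing notes. How background, probe summary and normalization were handled is not given in the sources used here. Values ran from 0.73 to 14.49. The number of arrays limits the precision.

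A platform table paired 34945 probe sets with 1 gene symbol, and 932 with several symbols were left out. Of the probe sets of a gene, that with the highest overall mean stood for it, giving 18193 genes with no filter on low values. Differences were tested in R 4.3.3 with lmFit and eBayes of limma 3.58.1, in one fit of the 3 group means to all 11 arrays (8 residual degrees of freedom, no covariate), with Benjamini-Hochberg adjustment over all genes and a threshold of 0.05. Probe sets were compared in a separate fit over 45037 probe sets. The test was checked on simulated data drawn with independent arrays and an equal spread in all groups, without the tie of the M0 means. The data differ from this setting, with median SDs over all genes of 0.082 in M1, 0.086 in M2a and 0.24 in M0. The check therefore does not cover unequal spread or tied M0 arrays.

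The genes named are the 10 listed, Keap1, Bach1, Hmox1 and Slc7a11, from each pathway list the 2 largest rises and falls against M0 among called genes whose arrays did not overlap, and the 3 genes nearest to Nfe2l2. The members and lists were chosen with earlier results of these data known. The 25 alternatives were other normalizations, choices of probe set, fits, covariates and arrays left out. Leaving out M0 arrays 1 and 4 together was chosen after seeing the data.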

Additional observations from a re-analysis of the deposited data

How the results depend on the processing

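In the 25 alternatives run, 191 of 225 values of the 9 genes kept their direction and side of the threshold in M1 against M0, 199 of 225 in M2a against M0 and 209 of 225 in M1 against M2a; for the named pathway genes these were 422 of 424, 429 of 449 and 97 of 100. Several alternatives change the spread or the genes tested and by construction leave the difference itself as it is. The causes of the changes below were not tested, except that fewer genes or arrays entered some fits. The hybridization controls did not overlap between M0 and the other groups, so that covariate is hard to separate from group. Genes changed in M1 against M0 numbered 7217, but 4625 of the 9096 genes above the median gene, and 4758 with M0 arrays 4 and 5 alone; in M2a against M0 they numbered 5804, but 3801 with M0 arrays 4 and 5 alone and 9008 with the hybridization controls. In M1 against M2a they numbered 5341, but 10357 with those groups alone, 11342 with array weights, 8442 with the hybridization controls and 8653 without M0 arrays 1 and 4. Of the 9 genes, 4 were called in M1 against M0, but 7 with array weights and 2 with the actin covariate (4 with the hybridization controls, 1 higher and 3 lower); 3 were called in M2a against M0, but 7 with array weights, 7 with the hybridization controls and 6 without M0 arrays 1 and 4. Over all genes in M1 against M0, 10288 were called with array weights, 7250 with the actin covariate and 8651 with the hybridization controls. Over all genes in M2a against M0, 8441 were called with array weights and 8233 without M0 arrays 1 and 4. Leaving out each array in turn gave 3 to 5, 3 to 4 and 5 of the 9 genes in the 3 comparisons.

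Signs turned in M1 against M0 for Gsr (-0.19 with quantile normalization, -0.16 with the actin covariate), Cat (0.016 with the mean of probe sets), Nfe2l2 (-0.62 with the hybridization controls, -0.18 with actin), Srxn1 (-0.34) and Txnrd1 (-0.30), both with the hybridization controls. In M2a against M0 they turned for Nfe2l2 (-0.020 with quantile normalization, -0.047 with array weights, -0.87 with the hybridization controls, adjusted p 0.011, -0.21 without M0 arrays 1 and 4), Hmox1 (-0.072 with array weights, -1.23 with the hybridization controls, -0.27 without M0 arrays 1 and 4), Sod2 (0.25) and Keap1 (0.11) with the mean of probe sets, and Srxn1 (-0.20) and Chac2 (-0.62) with the hybridization controls. In M1 against M2a they turned for Srxn1 (0.38 with the mean of probe sets, 0.74 without probe sets ending in _x_at or _s_at), Cat (0.18 with the mean) and Nfe2l2 (-0.23 with actin). Leaving out 1 array at a time gave -0.044 to 0.081 for Gsr in M1 against M0; -0.053 to 0.22 for Nfe2l2, -0.22 to 0.0060 for Txnrd1 and -0.15 to 0.40 for Hmox1 in M2a against M0; and -0.21 to 0.0060 for Srxn1 in M1 against M2a, none of them called differences in the full fit.

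Whether replicate numbers pair the samples is not stated in the labels, and so few arrays cannot settle it. Same-numbered arrays of 2 groups had deviations correlated at -0.04 to 0.25, above 0.1 in 2 of 9 pairs. Those were M1 and M0 arrays numbered 1, at 0.25, and 3, at 0.17. In 9 of 18 comparisons an array matched best with its own number. With the replicate number as a block, 8023, 6492 and 6963 genes and 4, 4 and 5 of the 9 genes were called in M1 against M0, M2a against M0 and M1 against M2a.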
